A study of Mus musculus with 6 samples.

Results

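The insulin-like growth factor (IGF) family was followed through its 10 listed genes: the ligands Igf1 and Igf2, the receptors Igf1r and Igf2r, and the binding proteins Igfbp2, Igfbp3, Igfbp4, Igfbp5, Igfbp6 and Igfbp7. Probe sets that the array annotation ties to 1 of these symbols alone were kept, which gave 28 probe sets, and each gene is shown by whichever of its sets was brightest on average across the 6 arrays. All 10 genes were found, of 18193 genes that the arrays could name. The tissue was the whole mammary gland of virgin female FVB/N mice aged 4 months. The 3 Cav-3KO glands lacked caveolin-3, the caveola coat protein of muscle cells, and the 3 WT glands came from wild-type animals of the same strain. The labels give neither the allele, nor the stage of the oestrous cycle, nor whether glands of several mice were pooled. They also do not say that the 3 glands of a genotype came from different mice, so the p-values measure the spread between these samples, which may be partly technical.

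IGF1 and IGF2 are small secreted hormones that act through IGF1R, a receptor tyrosine kinase, while IGF2R takes IGF2 up for breakdown without signalling as a kinase. Binding proteins hold the ligands in blood and tissue fluid and release them when proteases cut them. In the mammary gland, growth hormone makes stromal cells produce IGF1, which drives the growth of ducts, and IGFBP5 is known for its rise when the gland regresses after lactation.

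Values are log2 expression after robust multi-array averaging (RMA), so a difference of 1 is a 2-fold change, and every difference is Cav-3KO minus WT. Array medians lay between 5.77 and 5.80, and arrays of the same genotype correlated at 0.990 to 0.995 over all probe sets. The probe set of the disrupted gene, Cav3, lay at 4.72 to 4.83 in Cav-3KO glands and 4.74 to 5.02 in WT glands, and so did not check the genotype. In female glands, 15 probe sets of Y-linked genes give a level for transcripts that are not there: their means ran from 2.04 to 6.16, with a median of 2.85 and 1 set above 5. Markers of both main compartments of the gland were far above this level: Krt8, a luminal keratin, was 12.56 to 12.70 in Cav-3KO glands and 11.41 to 12.19 in WT glands, and Adipoq, of adipocytes, 12.64 to 12.77 in Cav-3KO glands and 13.00 to 13.25 in WT glands.

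Across the family, 1 gene rose in Cav-3KO glands (Igfbp2), 1 fell (Igfbp6) and 8 did not pass the test. The test was limma's moderated test over all 45037 probe sets, with a Benjamini-Hochberg adjusted p under 0.05. By the same rule 16.2% of all genes were called, 7.65% as higher and 8.51% as lower, so 2 of 10 is near the background. The values of the Cav-3KO and WT arrays did not overlap for the same 2 genes, against 38.3% of all genes (18.5% higher, 19.8% lower). The median log2 difference was −0.10 over the 10 genes and −0.0091 over all genes.

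**Figure D1:**
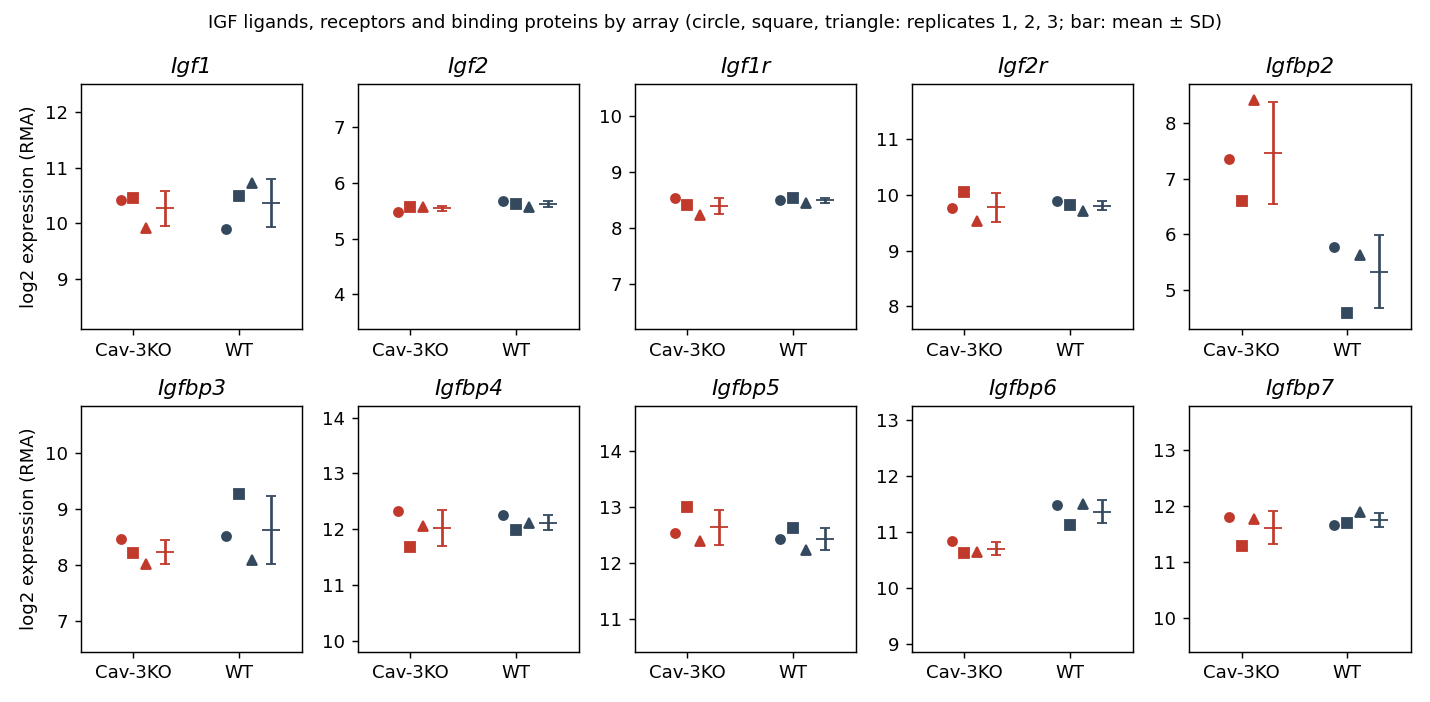
Log2 expression (RMA) of the 10 family genes on the 3 Cav-3KO arrays (red, left) and the 3 WT arrays (dark, right), 1 panel a gene with axes of equal span; bars give the mean and SD of each group. The Igfbp2 points of the Cav-3KO arrays, 6.60 to 8.41, lie above those of the WT arrays, the Igfbp6 points, 10.62 to 10.83, lie below them, and the groups overlap in the other panels.

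The ligand genes did not pass the test. Igf1 was 10.42, 10.46 and 9.91 in Cav-3KO glands 1 to 3, against 9.89, 10.49 and 10.72 in WT glands 1 to 3. The groups overlapped, and the lowest gland of each, Cav-3KO 3 and WT 1, differed by less than the spread within either group. The difference was −0.10 ± 0.23 (SE, 95% interval −0.63 to 0.43, adjusted p = 0.837).

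The 4 probe sets of Igf1 gave unequal answers. The second, 1434413_at, showed −0.10 ± 0.26 and the third, 1419519_at, −0.37 ± 0.18 (adjusted p = 0.846 and 0.243). The set with the lowest mean, 1452014_a_at, read 8.54, 8.41 and 8.31 in Cav-3KO glands and 8.88, 8.72 and 9.11 in WT glands. There the groups did not overlap and the value fell by 0.48 ± 0.12 (adjusted p = 0.0415). Whether this set differed from the shown one was tested on their difference within each array, which was −1.84 ± 0.23 in Cav-3KO glands and −1.46 ± 0.40 in WT glands (SD, n = 3 each). An exact two-sided permutation test gave p = 0.3, where 20 assignments of the arrays allow none below 0.1, so unequal change of the 2 sets was not shown. Igf1 is spliced into several transcripts, and which of them each set reads is not given in the sources used here.

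Igf2, the ligand that is abundant in fetal tissue, was 5.49, 5.58 and 5.57 in Cav-3KO glands and 5.67, 5.62 and 5.57 in WT glands. The difference of −0.08 ± 0.08 had a 95% interval of −0.27 to 0.11 (adjusted p = 0.612). Its other set read 2.71 to 2.97 in Cav-3KO glands and 2.64 to 2.81 in WT glands, next to the median of the Y-linked sets, and its difference was 0.16 ± 0.10. The means of both Igf2 sets thus lay within the range of the Y-linked sets, whose upper end is set by 1 set, with the next at 4.86.

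Neither receptor gene passed the test. Igf1r, which carries the growth signal into the cell, was 8.53, 8.41 and 8.24 in Cav-3KO glands and 8.50, 8.53 and 8.45 in WT glands. The groups overlapped, with Cav-3KO 3 the lowest array, and the difference was −0.10 ± 0.10 (95% interval −0.33 to 0.13, adjusted p = 0.577). The other 4 sets of Igf1r had differences from −0.20 to 0.14, none of them past the threshold (adjusted p between 0.423 and 0.818).

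Igf2r, which removes IGF2 and also sorts lysosomal enzymes, was 9.76, 10.05 and 9.53 in Cav-3KO glands and 9.89, 9.82 and 9.71 in WT glands. The Cav-3KO glands spread around the WT values, with the highest and the lowest array of the 6 both among them. The difference was −0.03 ± 0.14 (95% interval −0.34 to 0.29, adjusted p = 0.930), and the second set gave −0.18 ± 0.09 (adjusted p = 0.274).

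**Figure D2:**
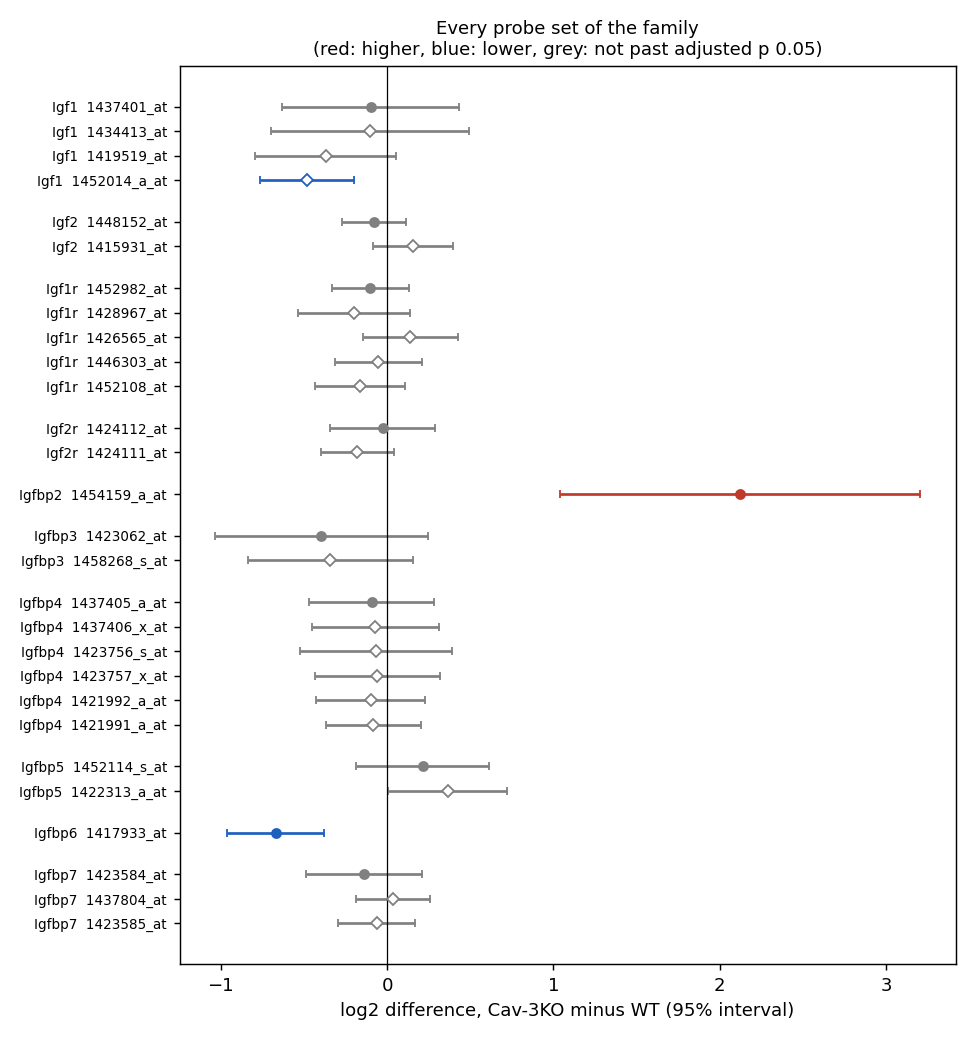
Log2 difference, Cav-3KO minus WT, with its 95% interval, for all 28 probe sets of the family; circles mark the set that stands for a gene and open diamonds its other sets. The interval of Igfbp2 runs from 1.04 to 3.20, that of Igfbp6 from −0.96 to −0.38, and 1 of the 4 Igf1 sets was called lower.

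Igfbp2 (probe set 1454159_a_at) had the largest difference of the 10 genes. This binding protein holds both ligands and is carried in blood and made in many tissues. It was 7.35, 6.60 and 8.41 in Cav-3KO glands and 5.77, 4.59 and 5.64 in WT glands, means of 7.45 ± 0.91 and 5.33 ± 0.65 (SD, n = 3 each). The groups did not overlap: the lowest Cav-3KO value, of gland 2, was above the highest WT value, of gland 1. Igfbp2 rose by 2.12 ± 0.47 on the log2 scale (95% interval 1.04 to 3.20), 4.35-fold, with limma's adjusted p = 0.0255. The WT mean lay within the range of the Y-linked sets, though above all but 1 of them, and RMA understates folds of dim sets.

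The Cav-3KO values of Igfbp2 themselves spanned 1.81 log2 units. With 1 array left out the difference was 1.64 to 2.55, and it missed the threshold without Cav-3KO 1, Cav-3KO 3, WT 2 or WT 3 (adjusted p = 0.0587, 0.0634, 0.0718 and 0.0628). It also missed it with a robust variance prior trended on intensity (adjusted p = 0.0725) and with a covariate for skeletal muscle, the mean of its markers on each array (adjusted p = 0.0731). Only 1 probe set reads Igfbp2, so no second set bears on it.

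Igfbp6 (probe set 1417933_at), which binds IGF2 more tightly than IGF1, went the other way. It was 10.83, 10.62 and 10.65 in Cav-3KO glands and 11.48, 11.12 and 11.50 in WT glands. The values spanned 0.21 log2 units in Cav-3KO glands and 0.37 in WT glands, and the groups did not overlap. Igfbp6 fell by 0.67 ± 0.13 (95% interval −0.96 to −0.38, adjusted p = 0.0152), which makes WT 1.59-fold higher. The call was lost without Cav-3KO 3, WT 1 or WT 3 (adjusted p = 0.0614, 0.0538 and 0.0581), while the difference stayed between −0.79 and −0.60. With the muscle covariate Igfbp6 passed the threshold (adjusted p = 0.0132). This gene too had 1 probe set.

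Igfbp5, the binding protein linked to regression of the gland, was 12.53, 12.99 and 12.39 in Cav-3KO glands and 12.42, 12.62 and 12.22 in WT glands. Cav-3KO 2 was the highest of the 6 and the groups overlapped. The difference was 0.22 ± 0.17 (95% interval −0.18 to 0.62, adjusted p = 0.480). In the second set, 1422313_a_at, the values were 8.96, 9.47 and 8.89 in Cav-3KO glands and 8.79, 8.78 and 8.65 in WT glands. These did not overlap, but the difference of 0.36 ± 0.15 missed the threshold (adjusted p = 0.173).

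Igfbp2 and Igfbp5 are next to each other among protein-coding genes on mouse chromosome 1, as Igfbp1 and Igfbp3 are on chromosome 11 (RefSeq, GRCm38.p6). Within each array, Igfbp2 minus Igfbp5 was −5.18, −6.40 and −3.98 in Cav-3KO glands and −6.65, −8.03 and −6.59 in WT glands. All 3 Cav-3KO values were above all 3 WT values, and the difference of differences was 1.91. The exact two-sided permutation p was 0.1, the smallest that 3 against 3 arrays allow. This test could not reach 0.05 whatever the values, so it does not decide on unequal change. The contrast was chosen with the Igfbp2 difference known and largely restates it.

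Igfbp3, the main carrier of IGFs in blood, was 8.46, 8.21 and 8.02 in Cav-3KO glands and 8.52, 9.27 and 8.08 in WT glands. WT 2 stood above the other 5 arrays. The difference was −0.39 ± 0.28 (95% interval −1.03 to 0.24, adjusted p = 0.412), and −0.07 without WT 2. Its second set gave −0.34 ± 0.21 (adjusted p = 0.359).

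Igfbp4, which blocks IGF action until it is cut, was 12.33, 11.69 and 12.05 in Cav-3KO glands and 12.25, 11.98 and 12.11 in WT glands. The Cav-3KO arrays held both the highest and the lowest value. Its 6 probe sets gave differences between −0.10 and −0.06, with adjusted p between 0.721 and 0.875. For the shown set the 95% interval was −0.47 to 0.28.

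Igfbp7, a relative that binds IGFs weakly and is secreted around blood vessels, was 11.80, 11.29 and 11.77 in Cav-3KO glands and 11.66, 11.71 and 11.90 in WT glands. Cav-3KO 2 was the lowest array and the rest overlapped. The difference was −0.14 ± 0.15 (95% interval −0.49 to 0.21, adjusted p = 0.623), and the other 2 sets gave 0.035 and −0.06.

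The windows around the annotated start sites of Igfbp2, Igfbp6 and Igfbp5 are printed because these are the gene that rose, the gene that fell and the neighbour of Igfbp2 that missed the threshold. Each runs from 250 bases before to 50 bases after the start, on the gene's own strand, from RefSeq (GRCm38.p6). Capitals mark GGGCGG, the GC box, or TATAAA, the TATA box, on either strand.
Igfbp2, chr1:72824230-72824529, plus strand: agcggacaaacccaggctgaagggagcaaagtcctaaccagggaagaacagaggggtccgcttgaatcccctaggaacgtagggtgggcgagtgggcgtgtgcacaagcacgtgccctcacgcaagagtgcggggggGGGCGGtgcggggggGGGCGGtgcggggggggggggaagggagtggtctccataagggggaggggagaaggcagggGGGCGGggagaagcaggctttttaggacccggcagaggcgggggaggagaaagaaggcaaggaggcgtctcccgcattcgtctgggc
Igfbp6, chr15:102143936-102144235, plus strand: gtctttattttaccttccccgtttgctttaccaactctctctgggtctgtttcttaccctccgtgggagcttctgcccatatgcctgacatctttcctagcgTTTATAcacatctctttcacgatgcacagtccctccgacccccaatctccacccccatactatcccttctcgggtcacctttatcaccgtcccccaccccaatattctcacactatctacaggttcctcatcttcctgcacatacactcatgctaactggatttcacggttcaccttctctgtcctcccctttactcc
Igfbp5, chr1:72874816-72875115, minus strand: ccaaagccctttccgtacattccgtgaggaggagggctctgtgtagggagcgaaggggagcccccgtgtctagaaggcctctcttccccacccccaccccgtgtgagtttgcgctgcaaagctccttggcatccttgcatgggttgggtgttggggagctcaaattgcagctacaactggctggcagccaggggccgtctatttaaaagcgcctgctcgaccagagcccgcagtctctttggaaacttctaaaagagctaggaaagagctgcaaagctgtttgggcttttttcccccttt
The printed Igfbp2 window held 3 GC boxes and 67.0% G and C, the Igfbp6 window 1 TATA box, read on the opposite strand, and 49.7%, and the Igfbp5 window neither motif and 56.3%. A second annotated start of Igfbp2, with its window at chr1:72825137-72825436, held 0 GC boxes and 57.3% G and C. Over 32851 windows of the same length the median was 52.7% G and C, 35.7% held a GC box, 13.6% a TATA box and 8.30% the motif TTCNNNGAA, which STAT factors can bind and which reads the same on both strands. All 10 genes had a window, 14 windows in all, and of these 6 held a GC box, 2 a TATA box and 0 TTCNNNGAA. These are exact matches of letters, at any place in a window and, for the 2 boxes, on either strand. They do not show a working GC or TATA box, near matches were not counted, and the arrays do not measure binding there.

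The genes whose 6 centred log2 values lay nearest to Igfbp2, of all 18192 other genes, were Melk, Emid1 and Cdk1, at distances of 0.39, 0.43 and 0.44 log2 units over the 6 arrays. Melk was 7.38, 6.49 and 8.53 in Cav-3KO glands and 6.18, 4.72 and 5.79 in WT glands. Cdk1, the kinase that drives cells into mitosis, was 8.86, 8.07 and 9.91 in Cav-3KO glands and 7.75, 6.32 and 7.26 in WT glands. Emid1 was 10.45, 9.36 and 11.10 in Cav-3KO glands and 8.63, 7.72 and 8.36 in WT glands. In all of them, as in Igfbp2, gland 3 was the highest and gland 2 the lowest of the Cav-3KO glands, and WT 2 was the lowest of the WT glands. In limma's test Emid1 and Cdk1 passed the threshold and Melk missed it (adjusted p = 0.0190, 0.0489 and 0.0554). Nearest to Igfbp6 were Ivd, an enzyme of leucine breakdown, C1ra, a complement protease, and Oxct1, an enzyme of ketone use, at 0.090, 0.13 and 0.14. Ivd was 10.52, 10.34 and 10.45 in Cav-3KO glands and 11.25, 10.89 and 11.23 in WT glands. These likenesses include the genotype difference and are a description with no test.

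Genes that set how much free IGF a tissue has, and the growth hormone axis above them, were taken as 1 list, with 15 measured. In it 2 genes rose and 1 fell, with a median difference of −0.13, and 3 of 15 is near the 16.2% called among all genes. Igfals, the acid-labile subunit that joins IGF and IGFBP3 into a long-lived complex, was 8.59, 9.84 and 9.12 in Cav-3KO glands and 7.74, 7.56 and 8.02 in WT glands. It rose by 1.41 ± 0.29, 2.66-fold (adjusted p = 0.0195), and missed the threshold without Cav-3KO 3, WT 1 or WT 2 (adjusted p = 0.0665, 0.0589 and 0.0648) or, narrowly, with the muscle covariate (0.0518). No other probe set was annotated to Igfals alone.

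Pappa, the protease that cuts IGFBP4, was 6.40, 7.06 and 6.66 in Cav-3KO glands and 5.94, 5.48 and 5.91 in WT glands. It rose by 0.93 ± 0.19, 1.91-fold (adjusted p = 0.0202), and 1 of its other 2 sets was called higher as well. The Pappa call was lost without Cav-3KO 3, WT 2 or WT 3 (adjusted p = 0.0666, 0.0578 and 0.0515) and with the muscle covariate (0.0578). Stc2, a stanniocalcin that inhibits this protease, was 7.07, 6.55 and 6.65 in Cav-3KO glands and 8.54, 7.63 and 8.39 in WT glands. It fell by 1.43 ± 0.24 (adjusted p = 0.0108), 2.70-fold higher in WT, and both of its other sets were called lower.

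The relatives of these genes did not pass the test. Stc1 was 6.96, 7.89 and 7.22 in Cav-3KO glands and 6.80, 6.55 and 6.78 in WT glands, with a difference of 0.64 ± 0.22 (adjusted p = 0.101). Ghr, the growth hormone receptor, had −0.44 ± 0.14 (adjusted p = 0.0769) and Socs2, which damps its signal, 0.77 ± 0.21 (adjusted p = 0.0553). The groups did not overlap for these 3 genes, as for 38.3% of all genes. Ghr was the only gene of this list shown by a set ending _s_at or _x_at. Without such sets, or with each gene's sets averaged, 2 genes of the list were called lower instead of 1, so the result for Ghr depends on the probe set. Igfbp1, the binding protein of the liver, lay at 2.80 to 2.97 in Cav-3KO glands and 3.07 to 3.26 in WT glands, near the median of the Y-linked sets. Of the proteases that can also act on binding proteins, Htra1, Mmp2, Mmp3, Plat, Plau and Pappa2 had differences between −0.33 and 0.43, none past the threshold. The means of Plau and Pappa2 over all arrays, 3.55 and 4.73, lay within the range of the Y-linked sets, which limits what their values can show.

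The list of signalling genes held the insulin receptor gene Insr and genes that act below the receptors. Of its 13 measured genes 3 rose and 0 fell, with a median difference of 0.04, where 7.65% of all genes were called higher and 8.51% lower. At an unadjusted p under 0.05 in limma, 4 were higher and 3 lower, against 2963 higher and 3144 lower of all 18193 genes. Irs2, an adaptor for the insulin and IGF receptors, was 9.46, 10.07 and 9.72 in Cav-3KO glands and 8.24, 8.40 and 9.00 in WT glands. It rose by 1.20 ± 0.22, 2.30-fold (adjusted p = 0.0143, and 0.0542 without Cav-3KO 3). No other probe set was annotated to Irs2 alone. Irs1, its relative, had 0.17 ± 0.10 (adjusted p = 0.331).

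Gab1, a docking protein of receptor kinases, was 10.29, 9.92 and 10.31 in Cav-3KO glands and 9.22, 9.25 and 9.36 in WT glands. It rose by 0.90 ± 0.12 (adjusted p = 0.00535), and its other 2 sets were called higher too. Foxo3, a transcription factor that AKT kinases keep out of the nucleus, was 10.51, 10.44 and 10.49 in Cav-3KO glands and 10.03, 9.75 and 9.69 in WT glands. It rose by 0.66 ± 0.11 (adjusted p = 0.0102), and 1 of its other 2 sets was called higher. Akt2, the isoform that serves insulin action in fat, had −0.64 ± 0.19 and Grb10, an adaptor that dampens both receptors, −0.31 ± 0.10, and both missed the threshold (adjusted p = 0.0655 and 0.0718).

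Imprinted growth genes and proteins that bind Igf2 messenger RNA formed the third list, with 9 of 11 measured, 0 higher and 1 lower, and a median difference of −0.01, beside the same 16.2% called among all genes (H19 and Igf2bp2 were not analysed here). Ndn, a growth suppressor expressed from the paternal allele, was 9.62, 9.20 and 9.35 in Cav-3KO glands and 9.84, 10.03 and 9.95 in WT glands. It fell by 0.55 ± 0.12 (adjusted p = 0.0269), and 3 of its other 7 sets were called lower. Its call was lost without Cav-3KO 3, WT 1, WT 2 or WT 3 (adjusted p = 0.0925, 0.0542, 0.0866 and 0.0858) and, just past the threshold, with the replicate number as a block (0.0506) or with the muscle covariate (0.0505). Mest, a paternally expressed gene of growing tissue, ran from 6.14 to 8.23 in Cav-3KO glands and 5.72 to 7.36 in WT glands (adjusted p = 0.289).

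**Figure D3:**
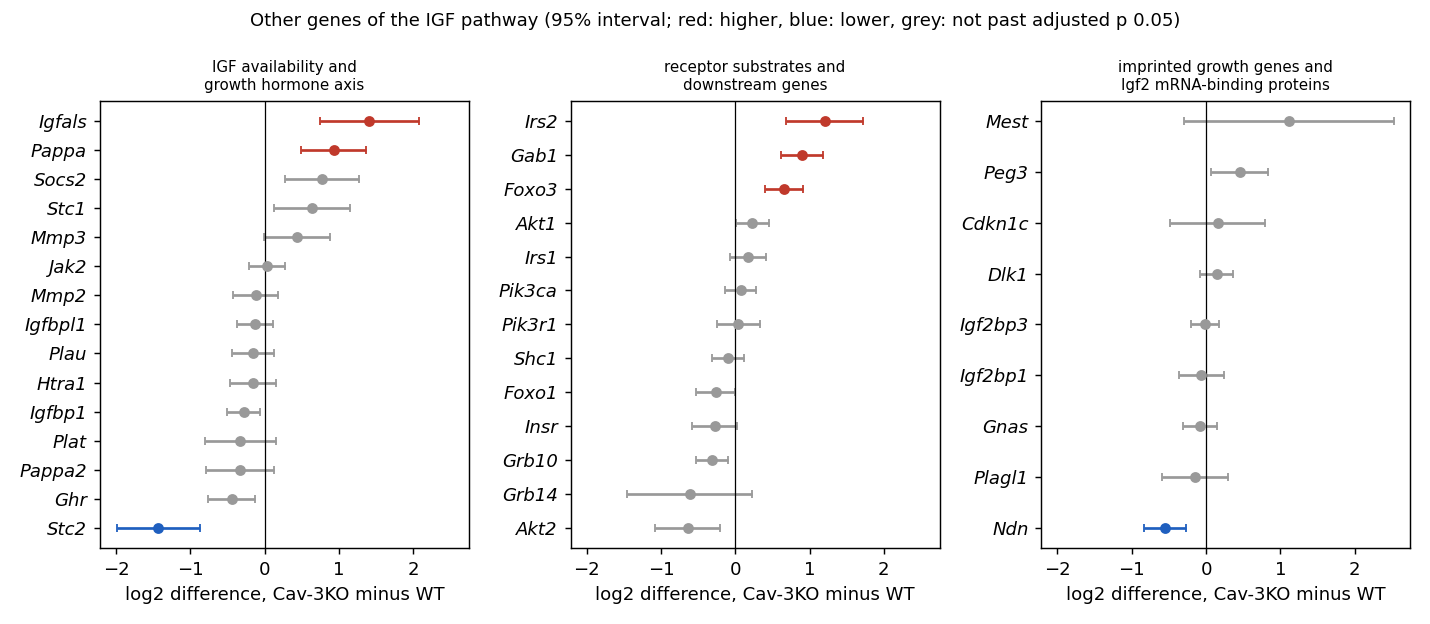
Log2 difference, Cav-3KO minus WT, with 95% intervals, for the 15, 13 and 9 measured genes of the 3 pathway lists, ordered by size within each panel. Igfals, Pappa, Irs2, Gab1 and Foxo3 (red) were called higher, Stc2 and Ndn (blue) lower, and the grey genes missed the threshold.

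Marker RNAs of several cell types differed between the genotypes beside these results. The mean of 12 luminal epithelial markers was 10.05 to 10.27 in Cav-3KO glands and 8.80 to 9.34 in WT glands, with 10 markers higher and 0 lower, and that of 9 basal markers 9.63 to 9.76 in Cav-3KO glands and 8.78 to 8.93 in WT glands, with 8 higher. The mean of 8 white adipocyte markers was 10.73 to 11.10 in Cav-3KO glands and 11.50 to 11.76 in WT glands, with 6 lower, and that of 7 B cell markers 7.25 to 7.63 in Cav-3KO glands and 8.06 to 8.35 in WT glands, with 7 lower. Endothelial markers (8.29 to 8.44 in Cav-3KO glands and 8.47 to 8.65 in WT glands, 2 of 10 lower) and those of vascular smooth muscle and pericytes (7.92 to 8.04 in Cav-3KO glands and 8.23 to 8.53 in WT glands, 4 of 8 lower) did not overlap either. The same test called 7.65% of all genes higher and 8.51% lower, and the groups did not overlap for 38.3% of single genes. The endothelial list, with 20% called, was near the 16.2% called among all genes.

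Fibroblast markers, of the cells that make much of the local IGF1, did overlap, at 11.04 to 11.55 in Cav-3KO glands and 11.18 to 11.43 in WT glands, with 0 of 10 higher and 1 lower. So did macrophage markers, at 9.27 to 9.51 in Cav-3KO glands and 9.31 to 9.52 in WT glands, with 1 of 8 higher and 1 lower. The shares called, 10% of fibroblast and 25% of macrophage markers, stand beside 16.2% of all genes. Skeletal muscle markers ran from 5.08 to 7.20 in Cav-3KO glands and from 5.57 to 9.17 in WT glands, with 0 of 11 called by limma (0 at an unadjusted p under 0.05 as well). No list had a member at 0, which RMA values do not reach. In whole glands, fewer cells of a type and less RNA per cell cannot be told apart, and the part of these markers in the Igfbp2 and Igfbp6 differences was not tested, beyond the muscle covariate given for both.

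**Figure D4:**
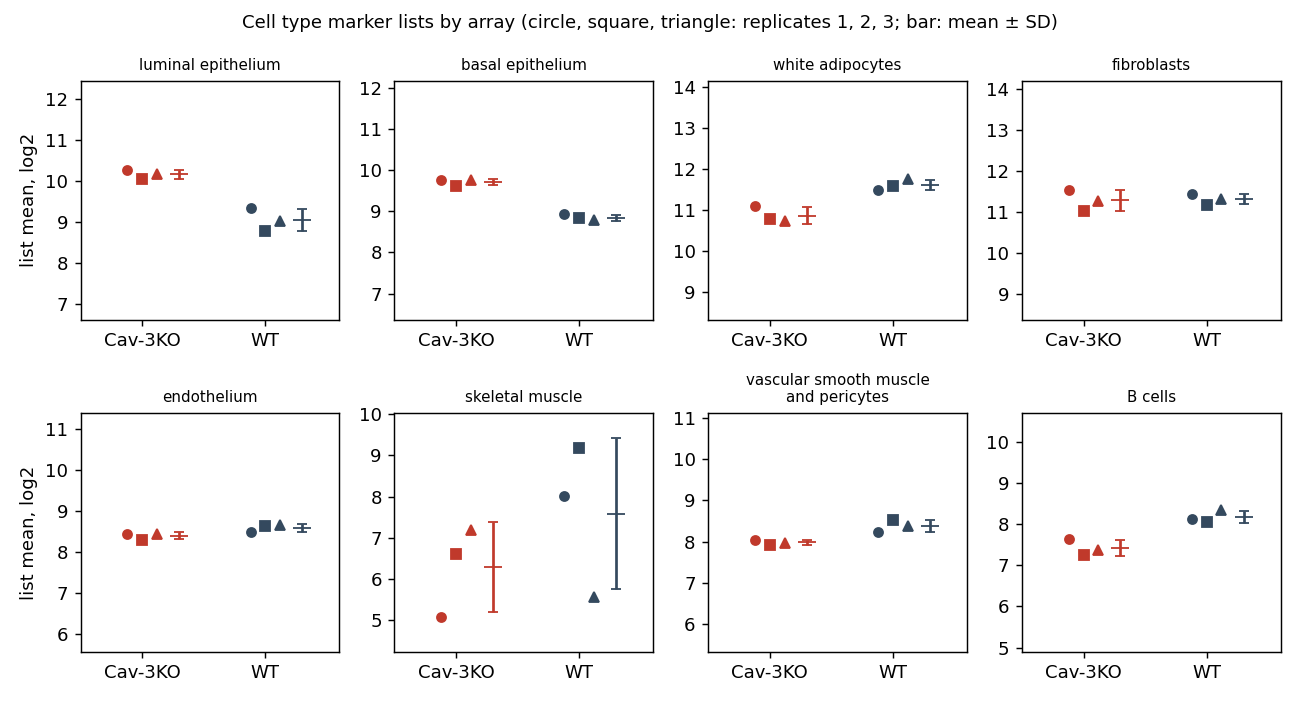
Mean log2 expression of 8 cell type marker lists on each Cav-3KO array (red, left) and WT array (dark, right), in panels of equal span; bars give the mean and SD of each group. The luminal and basal lists were higher and the adipocyte and B cell lists lower on all 3 Cav-3KO arrays, the fibroblast list overlapped, and the muscle list spread most within both genotypes.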

How the data were processed

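Total RNA of mammary glands, primed at its poly(A) tails and labelled with biotin, was read on 6 single-channel Affymetrix arrays. The deposited values are log2 expression, 1 per probe set and array, and the submitters' processing notes name RMA as the tool. This method corrects background, sets all arrays to the same distribution and compresses folds of dim sets; its version and a genome build are not given in the sources used here. Of 45101 probe sets, 64 controls were left out and 45037 tested without a filter. The platform annotation gave 34945 sets 1 symbol and 932 several, and 9160 were not listed; symbols were updated by Entrez identifier with RefSeq's table (GRCm38.p6).

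The test of genotype, the only term, was two-sided and ran in R 4.3.3 through lmFit and eBayes of limma 3.58.1. The Benjamini-Hochberg adjustment covered every tested set, with a threshold of 0.05, and intervals are 95%. Single contrasts within arrays used exact permutation tests. The small number of arrays, 3 a genotype, limits the precision. Figures were drawn with matplotlib 3.10.9, and the fit was tested on simulated data.

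The members, pathway lists and marker lists were chosen with earlier results of these data known. Named were the 10 members, up to 4 called genes of each pathway list with the smallest p, Cav3, and the 3 genes nearest by Euclidean distance to the member that rose most and the one that fell most. Uncalled list genes and Krt8 and Adipoq were named for their role, after their values were seen. Alternatives were other normalizations, a filter on dim sets, another variance prior, array weights, a replicate block, each array left out, fewer or averaged probe sets, other thresholds and a muscle covariate. Deviations from the group means over all sets correlated at −0.05, 0.19 and −0.02 between same-numbered arrays. Between arrays of unlike number they correlated at −0.19 to 0.26, so the numbers were not taken as pairs.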

Additional observations from a re-analysis of the deposited data

How the results depend on the processing

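Over the alternatives, the differences of the 10 members and 7 called pathway genes kept their direction and side of the threshold in 254 of 289 values, missed the threshold in 24, passed it in 1 (the Igf1 set with the lowest mean) and changed sign in 10, all of the last in genes that had missed the threshold. The 254 include uncalled members that stayed uncalled, and all 24 losses fell on called genes. Igfbp2 and Ndn kept their call in 10 of 16 alternatives each and Igfbp6 in 13, while Stc2, Gab1 and Foxo3 kept theirs in all 16. Sign changes came with Igf2 averaged over its sets (0.039) or by its other set (0.16), with a second set of Igf1r (0.14) and Igfbp7 (0.035), and with 1 array left out for Igf1 (−0.33 to 0.079), Igf2r (−0.16 to 0.096), Igfbp4 (−0.25 to 0.074) and Igfbp7 (−0.23 to 0.028).

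With 1 array left out, 0 to 1 members were higher and 0 to 1 lower. Over all probe sets 2218 to 5987 were called, against 5547 (2218 without Cav-3KO 3, 3348, 3096 and 2669 without WT 1, 2 and 3). In the availability list 0 to 3 genes were higher and 1 lower, among the signalling genes 2 to 3 higher and 0 to 1 lower, and in the imprinted list 0 to 2 higher and 0 to 1 lower. With the trended, robust prior 0 members were higher. With the replicate number as a block 5352 probe sets were called, the same 2 members passed, and 0 imprinted genes were lower; it changed no other count by over 1.5 times. Without dim sets, which removed Igf2, 1 signalling gene was lower. Without sets ending _s_at or _x_at, and with averaged sets, 2 availability genes and 1 signalling gene were lower. Sets with these endings stood for Ghr alone in the availability list, and for Akt2 and Foxo1 among the signalling genes. With the muscle covariate 0 members and 0 availability genes were higher, 1 signalling gene was lower and 0 imprinted genes were lower. At an adjusted p of 0.01, 1523 probe sets passed, with 0 members in either direction, 0 availability genes in either direction, 1 signalling gene higher and 0 imprinted genes lower; at 0.10, 8724 passed, with 3 availability genes and 2 signalling genes lower. The cause of these shifts was not tested, beyond the fewer arrays or stricter thresholds themselves. Igf2 near the level of the Y-linked sets limits what its values can show.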

Other observations

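One further probe set, 1440979_at, is annotated to both Igf2r and Airn, the antisense RNA of the Igf2r locus, and therefore stood for neither gene. It read 4.65, 4.87 and 4.48 in Cav-3KO glands and 4.67, 4.66 and 4.67 in WT glands, with a log2 difference of 0.0029 ± 0.11 (SE, limma adjusted p = 0.992).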
